A study of Mus musculus with 4 samples.

Results

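The enzymes and transporters of glycolysis and of the tricarboxylic acid (TCA) cycle were followed in CD8 T cells of the fatty liver. The set held 37 genes, chosen by symbol for their place in these pathways, and all 37 were found among the 15367 gene symbols of the deposited table. They cover glucose uptake, the steps from hexokinase to pyruvate kinase, lactate production and export, the regulators Hif1a and Pdk1, the pyruvate dehydrogenase complex and the cycle from citrate synthase to malate dehydrogenase. RNA came from CD8 T cells that had been flow-sorted from the livers of adult C57BL/6 mice after 4 weeks of MCD feeding, in the field's usual use a methionine- and choline-deficient diet that gives steatohepatitis. There were 2 libraries from wild type mice and 2 from mice labelled perforin knockout, all on the same diet. The labels do not state the knockout allele, its extent in the gene, the sex of the animals, their age in weeks, any pooling, or whether the libraries of a group came from separate animals. A group on a control diet and T cells from another organ were not analysed here.

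Glycolysis splits glucose to pyruvate in the cytosol, first spending ATP in a preparatory phase and then gaining it in a pay-off phase. Pyruvate is then either reduced to lactate, which leaves the cell through monocarboxylate transporters, or carried into mitochondria, where pyruvate dehydrogenase makes acetyl-CoA for the TCA cycle. Activated CD8 T cells are known for strong aerobic glycolysis, driven among others by MYC, mTOR and HIF-1, whereas memory T cells are known to lean more on mitochondrial oxidation.

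Values were read as FPKM, sequenced fragments scaled to transcript length and to the library's mapped fragments, so that levels can be compared between genes. Folds are differences in log2(FPKM + 1), positive where the libraries labelled knockout were higher. The added 1 makes them too small for genes of low level. Prf1, which encodes perforin, had a level of 125 and 113 FPKM in wild type replicates 1 and 2, and of 95.4 and 98.7 FPKM in knockout-labelled replicates 1 and 2. Values of a group are given in this order throughout. The log2 fold was -0.29 (SE 0.24), with an adjusted p of 0.873 by limma, so its RNA did not check the labels. A value over the whole gene says nothing of a short deletion, and each direction given rests on the labels. In bulk libraries, fewer cells of a type and less RNA per cell cannot be told apart.

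The library labelled knockout replicate 1 stood apart. Its Pearson correlations with the other 3 libraries, across genes that are not independent replicates, were 0.914 to 0.924, against 0.961 to 0.969 among those 3. It had the lowest value of the 4 libraries for 43.5% of the 9805 tested genes, where the others had it for 17.6% to 20.8%. The 6 CD8 T cell markers in the table, Cd8a, Cd8b1, Cd3e, Cd3d, Cd2 and Lck, were present in every library, with a summed FPKM of 3146 and 2949 in wild type, and 2476 and 2993 in those labelled knockout. Cd8a, Cd8b1 and Cd3e were highest in the library labelled knockout replicate 1, while Cd3d, Cd2 and Lck were lowest in it. RNA of other cells was present too. The 11 liver endothelial markers summed to 165 and 35.6 in wild type, and 323 and 77.6 in those labelled knockout, and the 9 neutrophil markers to 235 and 249 against 108 and 147. The 10 macrophage and Kupffer cell markers summed to 2450 and 2552 against 1648 and 2450, nearly all of it Lyz2. The other genes of that list were highest in the library labelled knockout replicate 1, except Cd68, with 14.8 and 7.85 FPKM against 8.30 and 11.8. Csf1r had 17.1 and 17.1 FPKM against 38.2 and 24.3, C1qa 14.6 and 9.56 against 38.4 and 12.04, and C1qb 16.3 and 6.05 against 44.2 and 10.5, and the median log2 fold of its 6 tested genes was 0.81. The Kupffer cell genes Timd4 and Vsig4 were at 0 in both wild type libraries and Vsig4 at 3.99 and 0.178 in those labelled knockout. Cd5l and Marco, by contrast, had 0.735 and 0.594 FPKM in wild type replicate 2. Hepatocyte markers summed to 18.1 and 14.5 in wild type, and 33.1 and 10.98 in those labelled knockout. Alb had 0 and 0.950 FPKM against 7.65 and 0.172, and Apoa2 0 and 1.28 against 10.4 and 0. Trf went the other way, with 18.1 and 10.4 against 8.28 and 9.58, and Apoa1 was highest in wild type replicate 2. Ttr, Cps1 and Fgb were at 0 in all 4 libraries. B cell markers summed to 42.2 and 46.9 in wild type, and 23.8 and 60.4 in those labelled knockout. Erythroid markers summed to 62.7 to 97.9, with Slc4a1 at 0 throughout. The part of these cells in the values below was not tested.

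Of the 37 genes, 34 passed the filter of a mean of at least 1 FPKM. Pfkm, Aldoc and Eno1 did not. The 34 had a median level of 37.7 FPKM, against 10.2 over all tested genes, and 31 of them lay above that median. Ldha, which encodes the A subunit of lactate dehydrogenase, was the highest, with 422 and 495 FPKM in wild type, and 440 and 465 in those labelled knockout, at the 99.0th percentile of tested genes. Mdh1, Pkm, Mdh2, Idh3g and Aldoa followed, each with a mean of at least 100. The lowest tested members were Hk2 and Ldhb.

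**Figure D1:**
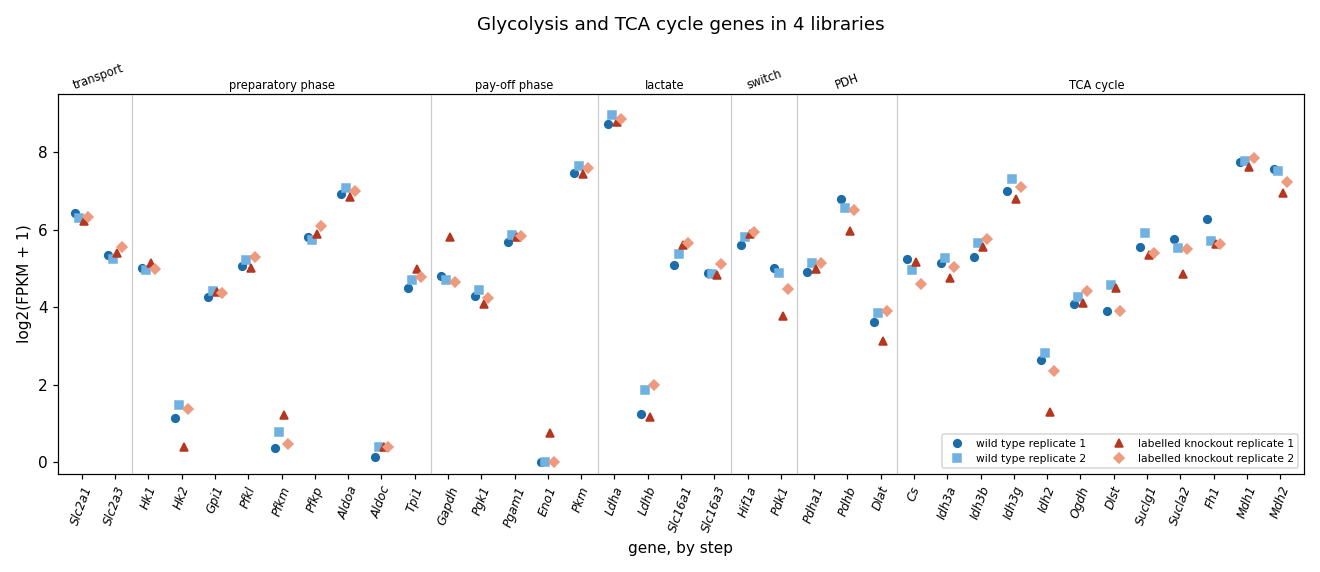
Level of each of the 37 genes as log2(FPKM + 1), ordered by step along the x axis, with 1 point per library. Ldha is highest, Aldoc, Pfkm and Eno1 lie near 0, and the 4 libraries lie close together for most genes.

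Where a step has several isozymes, the RNA came mainly from 1 or 2 of them in all 4 libraries. Hexokinase RNA was 94.5% to 99.1% Hk1, the widespread mitochondria-bound form, and Hk2, the inducible form of muscle and activated cells, had 1.20 and 1.75 FPKM in wild type, and 0.305 and 1.58 in those labelled knockout. Of phosphofructokinase RNA, Pfkp, the platelet form, made 58.4% to 64.2% and Pfkl, the liver form, 34.4% to 40.8%, while Pfkm, the muscle form, did not exceed 1.48%. Aldolase RNA was at least 99.7% Aldoa, and Aldoc, known from brain, had 0.101 and 0.320 FPKM in wild type, and 0.311 and 0.310 in those labelled knockout. Lactate dehydrogenase RNA was 99.4% to 99.7% Ldha, the form known to favour the reduction of pyruvate. Its heart-type partner Ldhb had 1.37 and 2.65 FPKM in wild type, and 1.24 and 2.99 in those labelled knockout, with replicate 2 above replicate 1 in both groups.

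Other pairs were shared more evenly. Slc2a1, the basal glucose transporter GLUT1, made 68.2% and 67.9% of the summed Slc2a1 and Slc2a3 FPKM in wild type, and 63.9% and 63.0% in those labelled knockout. Mdh1, the cytosolic malate dehydrogenase, made 53.1% and 54.4% of its sum with the mitochondrial Mdh2 in wild type, and 61.8% and 60.5% in those labelled knockout. Idh3g, a regulatory subunit of NAD-dependent isocitrate dehydrogenase, made 63.8% and 64.4% of the 3 subunit genes, against 60.6% and 61.5%. Slc16a1, the monocarboxylate transporter MCT1, made 53.8% and 59.1% of its sum with Slc16a3, known as MCT4, against 63.4% and 59.7%. In these 4 shares, which do not depend on the scaling between libraries, the groups did not overlap. The same held for 9 of the 12 shares computed, beside 35.9% of all tested genes taken singly. The shares are not separate, as Pfkp and Pfkl, both among the 9, are parts of the same sum. Aldoa, also among them, had a lowest share of 99.7626% in wild type and a highest of 99.7575% in those labelled knockout. The shares were chosen after values of these data were known and were not tested. An exact permutation test of 2 against 2 libraries cannot give a two-sided p below 0.333.

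**Figure D2:**
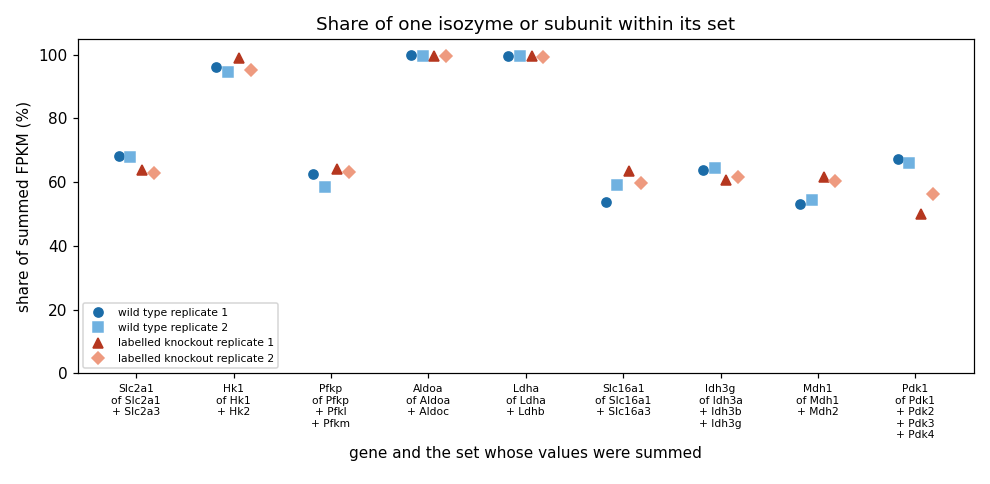
Share of 1 isozyme or subunit, in percent of the summed FPKM of its set, with 1 point per library. Hk1, Aldoa and Ldha hold at least 94.5% of their sets in every library, and the Mdh1 share is 53.1% and 54.4% in wild type against 61.8% and 60.5% in the libraries labelled knockout.

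Enolase showed a limit of the values. Eno1, the main enolase of most cells, was listed at 2.9e-05 and 2.95e-05 FPKM in wild type and at 0.691 and 2.76e-05 in those labelled knockout, far below its neighbours in the pathway. Gm5506, which RefSeq lists as another name of Eno1b, stood at 269 and 289 FPKM in wild type, and 194 and 281 in those labelled knockout. Eno1b is an intronless copy, and in GENCODE M21 (build GRCm38) the 1302 coding bases of Eno1, a gene on chromosome 4, are identical to it at all but 8 positions, with 1 run of 725 bases without any difference. The stretch of the Eno1 coding sequence with the most differences, bases 577 to 816 counted from the A of its start codon, is printed to show how little tells the genes apart, with capitals at the 4 bases where the copy differs:
Eno1: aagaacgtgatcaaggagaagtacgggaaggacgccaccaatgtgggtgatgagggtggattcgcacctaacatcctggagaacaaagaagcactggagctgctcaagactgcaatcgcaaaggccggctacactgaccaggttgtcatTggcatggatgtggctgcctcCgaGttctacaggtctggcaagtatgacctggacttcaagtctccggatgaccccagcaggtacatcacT
Short reads from either gene would match both over most of this length, so the Eno1 and Gm5506 values are uncertain and no difference between groups is drawn from them. Gm5506 was named after its values were seen.

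A search of the annotated transcripts found 9 of the 37 genes with at least 1 near-identical copy, here a transcript of another gene that matches at least 50% of the coding sequence at 95% identity or more. Gapdh had the most, 69, of which 63 covered at least 90% of its coding sequence, and Eno1 had 3, Pgk1 and Ldha 2 each, and Gpi1, Pgam1, Pkm, Ldhb and Pdhb 1 each. Values of these genes are uncertain where reads could be split or dropped. Gapdh, the glyceraldehyde-3-phosphate dehydrogenase often used as a reference gene, had no more than 54.6 FPKM in any library. A gene on the opposite strand overlaps 15 of the 37, and libraries that do not mark strand cannot separate the 2. These are Slc2a1, Hk1, Hk2, Gpi1, Pfkm, Pfkp, Aldoa, Tpi1, Gapdh, Hif1a, Pdha1, Idh3b, Sucla2, Fh1 and Mdh1.

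The design sets the libraries labelled knockout against wild type on the same diet. Of the 34 tested genes, 0 passed limma's test in either direction at an adjusted p under 0.05, as did 0% of all tested genes, and their adjusted p-values ran from 0.866 to 0.997. At an unadjusted p under 0.05 there was 1, Pdk1, while 4.79% of all tested genes were under it. In 14 of the 34 the groups did not overlap, as in 35.9% of all tested genes. Both libraries labelled knockout lay above both wild type libraries in 5, against 13.9% of all tested genes, and below in 9, against 21.9%. After upper-quartile scaling, which sets the upper quartile of the libraries equal, 9 lay above and 7 below, against 17.9% and 18.1%. The median log2 fold of the 34 was -0.03, and that of all tested genes -0.08. For 26 of the 34 the 95% interval of the difference lay within a 2-fold change in either direction, as it did for 40.4% of all tested genes. Leaving out 1 library moved the log2 fold by more than 1.5 times in 13 of the 14 genes whose groups did not overlap, the exception being Mdh2.

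**Figure D3:**
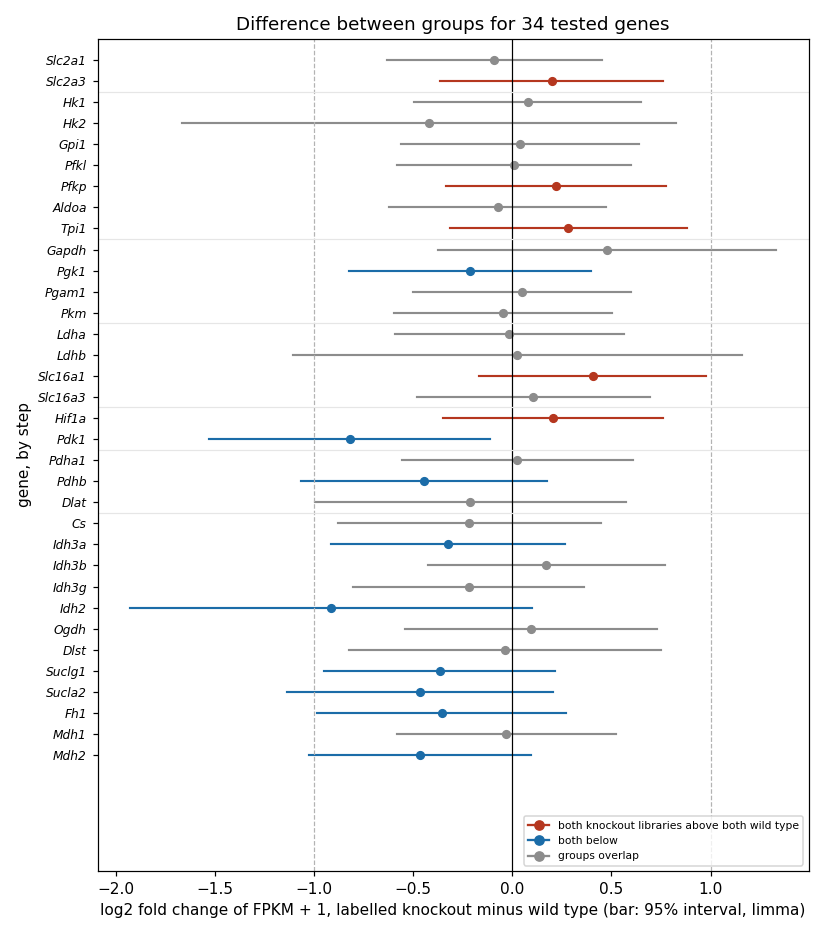
Log2 fold of each of the 34 tested genes (points) with its 95% interval from limma (bars), ordered by step. Red marks the 5 genes with both libraries labelled knockout above both wild type libraries, blue the 9 with both below, and the dashed lines mark a 2-fold change; the interval lies beyond 0 for Pdk1 and for no other gene.

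For glucose uptake and the preparatory phase the log2 folds lay between -0.42 and 0.28. Slc2a1 had 84.4 and 77.2 FPKM in wild type, and 73.2 and 78.5 in those labelled knockout, and the groups overlapped. Slc2a3, the high-affinity transporter GLUT3, had 39.3 and 36.5 against 41.3 and 46.1, higher in both libraries labelled knockout by a log2 fold of 0.20 (SE 0.25, 95% interval -0.36 to 0.76). Neither difference passed the test.

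Hk1 had 31.2 and 30.2 FPKM in wild type, and 34.4 and 30.6 in those labelled knockout. Gpi1, the isomerase that follows, had 18.2 and 20.2 against 20.01 and 19.4. Pfkl, whose enzyme commits sugar to glycolysis, had 32.4 and 36.3 against 31.0 and 38.4. In each of these genes the groups overlapped, and the log2 folds were 0.078, 0.038 and 0.0078.

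Pfkp had 54.9 and 51.9 FPKM in wild type, and 58.0 and 67.0 in those labelled knockout, a log2 fold of 0.22. Tpi1, the triose phosphate isomerase, had 21.5 and 24.8 against 30.5 and 26.2, giving a log2 fold of 0.28 (SE 0.26). Both lay higher in both libraries labelled knockout, within an interval that included 0. Aldoa, with 120 and 134 against 114 and 127, overlapped. Hk2 had a log2 fold of -0.42, with an interval of -1.67 to 0.83, too wide at its low level to bound a 2-fold change. In all, 2 of the 7 tested preparatory genes lay higher in both and 0 lower, beside 13.9% and 21.9% of all tested genes. The median log2 fold of the 7 was 0.04.

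The pay-off phase held the widest single-library departure among the cytosolic enzymes. Gapdh had 26.8 and 24.8 FPKM in wild type, and 54.6 and 24.1 in those labelled knockout, replicate 1 standing far above the other 3. The log2 fold was 0.48 (SE 0.37), and -0.096 when that library was left out, so the direction rested on it. Pgk1, the phosphoglycerate kinase that makes the first ATP of this phase, had 18.6 and 20.9 against 16.0 and 17.8, lower in both by a log2 fold of -0.21. Pgam1, the mutase of the next step, had 50.6 and 57.1 against 55.0 and 56.3. Pkm, the pyruvate kinase of T cells, had 175 and 199 against 172 and 190. Pgam1 and Pkm overlapped, and their intervals, -0.50 to 0.60 and -0.60 to 0.50, lay within a 2-fold change.

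Of the 4 genes of lactate production and export 1 was above both wild type libraries in each library labelled knockout, and 0 below. The shares of all tested genes were 13.9% and 21.9%. Ldha had a log2 fold of -0.02 (SE 0.25, 95% interval -0.59 to 0.56), and its groups overlapped. Slc16a1, which moves lactate across the cell membrane, had 32.9 and 40.3 FPKM in wild type, and 47.6 and 49.5 in those labelled knockout, the highest fold of this step at 0.40 (SE 0.25, 95% interval -0.17 to 0.98, limma adjusted p = 0.866). Slc16a3 had 28.3 and 27.9 against 27.5 and 33.4 and overlapped. After upper-quartile scaling 2 of the 4 genes of this step lay higher in both, in place of 1, beside 17.9% of all tested genes.

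Hif1a and Pdk1 sit between the pathways. Hif1a encodes the oxygen-regulated subunit of HIF-1, which is known to raise glycolytic genes and Pdk1. It had 47.5 and 55.2 FPKM in wild type, and 58.1 and 60.5 in those labelled knockout, higher in both by a log2 fold of 0.21 (SE 0.24). HIF-1 is controlled mainly through protein stability, which RNA does not show. Pdk1, the kinase that switches pyruvate dehydrogenase off, had 31.1 and 28.2 FPKM in wild type, and 12.6 and 21.1 in those labelled knockout. Both libraries labelled knockout lay below both wild type libraries, replicate 1 the farther.

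The log2 fold of Pdk1 was -0.82 (SE 0.31, 95% interval -1.53 to -0.11), with an unadjusted p of 0.0280 and an adjusted p of 0.866 by limma over all tested genes. It was -0.47 without the library labelled knockout replicate 1 and -1.17 without replicate 2. Of the summed levels of Pdk1, Pdk2, Pdk3 and Pdk4, Pdk1 made 67.2% and 66.1% in wild type, and 50.2% and 56.2% in those labelled knockout. Pdk3 had 14.0 and 13.4 against 8.85 and 14.3. Pdk4, a starvation-responsive kinase, had 0.832 and 0 against 2.86 and 1.47. Pdk3 overlapped between the groups, and Pdk4 was higher in both libraries labelled knockout at a level near 0.

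HIF-1 binds a core of ACGTG or GCGTG. RefSeq promoter windows (build GRCm38.p6, 250 bases before to 50 after each gene's start) were matched for 35 of the 37 genes, in 52 windows. ACGTG on either strand lay in 25 of the 52 (48.1%), against 19.6% of all 32851 windows, and GCGTG in 29 (55.8%), against 32.4%. The E-box CACGTG, a core that MYC binds, lay in 7 (13.5%), against 7.15%. Windows of 1 gene can overlap and hold the same match, so they are not separate. Ogdh had 6 windows, and its windows 4, 5 and 6 were among the 7 with CACGTG, windows 5 and 6 by the same site. Each CACGTG holds ACGTG on both strands. The windows of the set were also richer in G and C, with a median of 61.2% against 52.7%. By gene, ACGTG lay in a window of 18 of the 35, GCGTG of 21 and CACGTG of 5. Of all 27025 genes, 5886 held ACGTG and 9500 GCGTG, and CACGTG was not counted by gene. ACGTG lay in a window of 13 of 19 cytosolic genes, 4 of 14 genes of pyruvate dehydrogenase and the cycle, and 21.8% of all genes. These matches are letters and not shown binding sites.

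The first windows of 4 genes are printed, those of Ldha as the highest gene, of Slc16a1 and Pdk1 as the widest folds of their steps, and of Mdh2 as a high cycle gene that lay lower in both libraries labelled knockout. Capitals stand at each ACGTG or GCGTG on the printed strand and at CACGT or CACGC, which are the same cores on the other strand. In this order they are chr7:46845554-46845853, chr3:104638414-104638713, chr2:71872974-71873273 and chr5:135778399-135778698, all on the plus strand.
Ldha: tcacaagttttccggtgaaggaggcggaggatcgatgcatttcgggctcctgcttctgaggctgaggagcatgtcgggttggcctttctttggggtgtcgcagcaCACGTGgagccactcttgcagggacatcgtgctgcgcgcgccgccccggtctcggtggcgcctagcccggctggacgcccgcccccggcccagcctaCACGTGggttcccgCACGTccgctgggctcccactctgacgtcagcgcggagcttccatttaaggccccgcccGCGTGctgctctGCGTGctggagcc
Slc16a1: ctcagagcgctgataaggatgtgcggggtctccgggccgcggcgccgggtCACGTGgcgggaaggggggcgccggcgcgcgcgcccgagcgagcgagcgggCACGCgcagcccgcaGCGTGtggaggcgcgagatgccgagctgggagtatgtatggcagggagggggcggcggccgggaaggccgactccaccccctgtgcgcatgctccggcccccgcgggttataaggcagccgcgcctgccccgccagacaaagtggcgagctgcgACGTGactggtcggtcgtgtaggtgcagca
Pdk1: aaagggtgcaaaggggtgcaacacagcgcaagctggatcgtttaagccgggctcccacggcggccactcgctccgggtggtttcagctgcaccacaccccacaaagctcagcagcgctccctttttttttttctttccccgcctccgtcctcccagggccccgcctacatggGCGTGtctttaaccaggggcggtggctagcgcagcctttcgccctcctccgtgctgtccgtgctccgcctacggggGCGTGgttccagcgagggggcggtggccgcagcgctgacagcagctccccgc
Mdh2: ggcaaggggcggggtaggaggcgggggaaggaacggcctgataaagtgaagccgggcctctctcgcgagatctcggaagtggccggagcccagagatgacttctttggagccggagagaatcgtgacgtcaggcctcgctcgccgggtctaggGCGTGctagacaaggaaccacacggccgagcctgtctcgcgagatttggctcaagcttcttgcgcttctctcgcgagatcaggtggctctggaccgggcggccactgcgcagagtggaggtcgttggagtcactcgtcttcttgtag
The Ldha window held 5 matches of ACGTG, 4 of them from its 2 E-boxes, and 2 of GCGTG. The Slc16a1 window held 3 and 2. The window of Pdk1 held 0 and 2, and that of Mdh2 0 and 1. Whether the motifs bear on the values of these genes was not tested.

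Among the mitochondrial genes Mdh1 was counted as a partner of Mdh2, although its enzyme is cytosolic. Negative folds were found in 12 of these 15 genes and in 6 of the 17 tested cytosolic genes, beside 5714 of all 9805 tested genes. Of the 15 genes of pyruvate dehydrogenase and the cycle, all tested, 7 lay lower in both libraries labelled knockout and 0 higher, with a median log2 fold of -0.22, whereas of the 17 tested cytosolic genes 1 lay lower and 4 higher, with a median of 0.04. None of these genes passed the test. Of all tested genes 21.9% lay lower in both and 13.9% higher. After upper-quartile scaling 6 mitochondrial genes lay lower and 3 higher, and 0 cytosolic genes lower and 5 higher, beside 18.1% and 17.9% of all tested genes. The difference between the sides was not tested.

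Of the 3 pyruvate dehydrogenase genes 1 lay lower in both libraries labelled knockout and 0 higher, beside 21.9% and 13.9% of all tested genes. Pdhb, the E1 beta subunit, had 109 and 93.8 FPKM in wild type, and 61.8 and 89.2 in those labelled knockout, a log2 fold of -0.44 (SE 0.27) that was -0.18 when replicate 1 of the latter was left out. Pdha1, the E1 alpha subunit that the kinases phosphorylate, had 29.1 and 34.2 against 30.4 and 33.9, and its groups overlapped. Dlat, the E2 core, had 11.3 and 13.4 against 7.76 and 14.0. The median of the 3 was -0.21, and 0.10 without the library labelled knockout replicate 1.

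In the cycle 6 of 12 genes lay lower in both libraries labelled knockout and 0 higher, beside 21.9% and 13.9% of all tested genes. The median log2 fold of the 12 was -0.27. After upper-quartile scaling 5 lay lower and 3 higher, beside 18.1% and 17.9% of all tested genes, and the median was -0.17. Mdh2, which closes the cycle by making oxaloacetate, had 189 and 182 FPKM in wild type, and 121 and 148 in those labelled knockout. All 4 values were high, and the gap between the groups exceeded the gap within either. Its log2 fold was -0.47 (SE 0.24, 95% interval -1.02 to 0.09, limma adjusted p = 0.866). Its cytosolic counterpart Mdh1 had 214 and 217 against 196 and 227 and overlapped, with a log2 fold of -0.03.

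Succinyl-CoA ligase has an alpha subunit, from Suclg1, and an ATP-forming beta subunit, from Sucla2. Suclg1 had 46.2 and 58.9 FPKM in wild type, and 39.3 and 41.2 in those labelled knockout, a log2 fold of -0.37 (SE 0.25) that was -0.19 when wild type replicate 2 was left out. Sucla2 had 53.2 and 44.9 against 27.9 and 44.1. Its log2 fold was -0.46, and -0.14 when the library labelled knockout replicate 1 was left out. Both were lower in both, Sucla2 by a margin of under 1 FPKM between its nearest libraries.

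Fh1, the fumarase, had 75.8 and 50.7 FPKM in wild type and 48.3 in each of the libraries labelled knockout. Wild type replicate 1 was the library apart, and without it the log2 fold of -0.35 became -0.07. Idh2, the mitochondrial NADP-dependent isocitrate dehydrogenase, had 5.24 and 6.02 against 1.43 and 4.08, with the lowest log2 fold of the set at -0.91 (SE 0.44, 95% interval -1.93 to 0.10). It was -0.38 without the library labelled knockout replicate 1.

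The NAD-dependent enzyme of the same step is built from 3 genes whose values differed in sign. Idh3a, the catalytic subunit, had 34.1 and 37.7 FPKM in wild type, and 25.7 and 31.4 in those labelled knockout, lower in both by a log2 fold of -0.33 (SE 0.26). Idh3b had 38.1 and 49.4 against 45.4 and 52.9, and Idh3g 127 and 157 against 109 and 135. In both the groups overlapped, Idh3b with a positive and Idh3g with a negative fold.

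The other cycle genes overlapped. Cs, citrate synthase at the entry of the cycle, had 36.6 and 30.1 FPKM in wild type, and 34.7 and 23.2 in those labelled knockout. Ogdh and Dlst, the E1 and E2 components of the oxoglutarate dehydrogenase complex, had 16.0 and 18.1 against 16.2 and 20.5, and 13.8 and 22.8 against 21.5 and 13.9. Dlst varied more within each group than between them.

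**Figure D4:**
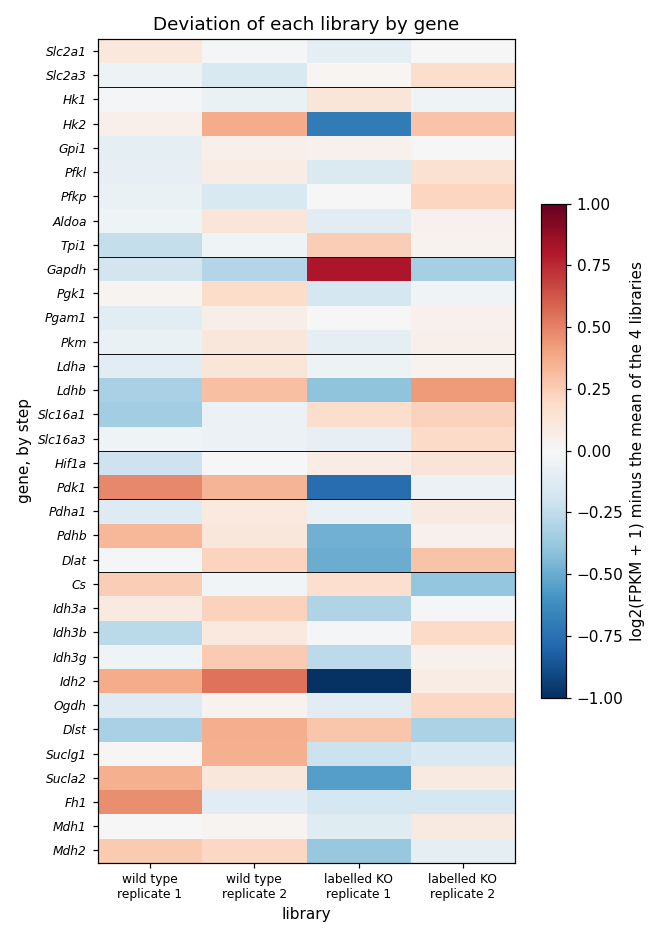
Deviation of each library from the mean of the 4, in log2(FPKM + 1), for the 34 tested genes ordered by step (red above, blue below the mean). The library labelled knockout replicate 1 holds the strongest blue cells, in Idh2, Pdk1, Hk2 and Sucla2, and the strongest red, in Gapdh.

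The library labelled knockout replicate 1 was the lowest of the 4 for 8 of the 12 cycle genes and for 10 of the 15 genes with pyruvate dehydrogenase, beside 43.5% of all tested genes. It was the highest for 0 of the 15, beside 25.2% of all tested genes. Without it the median log2 fold of the cycle was -0.25, with 9 of 12 genes negative in place of 10, while the median of all tested genes was -0.01 in place of -0.08. It also had the highest endothelial and hepatocyte and the lowest CD8 T cell and neutrophil marker sums. Single markers differed from the sums, as Cd8a, Cd8b1 and Cd3e were highest in it, with 289, 759 and 472 FPKM. Cd3d, Cd2 and Lck were lowest in it, with 128, 575 and 255 FPKM. Of the neutrophil markers, S100a9, Retnlg and Ltf were not lowest in it. This library was lowest for Lyz2 but highest for 8 of the 10 macrophage and Kupffer cell markers. The part of these in the result was not tested.

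**Figure D5:**
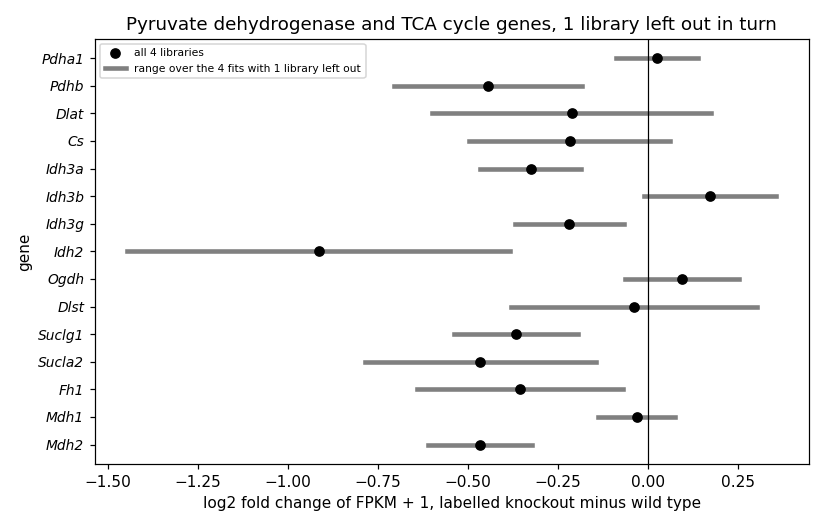
Log2 fold of the 15 pyruvate dehydrogenase and cycle genes with all 4 libraries (points) and its range over the 4 fits that leave out 1 library (bars). The bar of Idh2 runs from -1.45 to -0.38 and that of Mdh2 from -0.61 to -0.32; where the groups do not overlap, leaving out a library cannot change the sign.

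Within each library, the summed FPKM of the 15 mitochondrial genes was set against that of the 20 cytosolic ones, a ratio that does not depend on scaling between libraries. It was 0.861 and 0.794 in wild type, and 0.645 and 0.728 in those labelled knockout. Without Ldha it was 1.35 and 1.29 against 1.01 and 1.15. Without the genes with a near-identical copy, which left 14 mitochondrial and 12 cytosolic genes, it was 1.99 and 2.00 against 1.58 and 1.68. Without Mdh1 and Mdh2 it was 0.514 and 0.482 against 0.385 and 0.433. The cytosolic sums were 1159 and 1281 against 1219 and 1274, and the mitochondrial sums 999 and 1017 against 787 and 927. These values show both libraries labelled knockout below both wild type libraries in each form of the ratio and in the mitochondrial sum, while the cytosolic sums overlapped. The ratio was chosen after values were known and carries no test.

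Further genes of these pathways were read from 6 lists with 104 genes, of which 81 were tested. None of the 81 passed limma's test over all genes, 10 lay higher in both and 18 lower, beside the 13.9% and 21.9% of all tested genes. The same shares stand beside the counts of each list below, and 17.9% and 18.1% beside those after upper-quartile scaling. In the list of other pyruvate and cycle genes 2 of 21 lay higher and 7 lower, with a median log2 fold of -0.25 that was -0.01 without the library labelled knockout replicate 1, and 4 lay lower after upper-quartile scaling. Sdhb, the iron-sulphur subunit of succinate dehydrogenase, had 46.9 and 65.7 FPKM in wild type, and 18.6 and 42.2 in those labelled knockout, with a log2 fold of -0.96 (SE 0.39). Mpc1, a subunit of the carrier that brings pyruvate into mitochondria, had 9.11 and 9.40 against 3.21 and 6.50 (log2 fold -0.87, SE 0.37). Both lay lower in both, replicate 1 the farther. Overlap was searched for the 2 genes of each list with the smallest p. Of these, Mpc1, Bnip3, Mxi1, Prkag1 and Prkaa1 have a gene on the opposite strand that these libraries cannot separate. Further genes named from the lists, such as Pdk3, Pdk4 and Txnip, were not searched.

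In the list of other glycolysis and gluconeogenesis genes 1 of 17 lay higher and 3 lower, or 2 and 3 after upper-quartile scaling. Bpgm, which makes the red cell effector 2,3-bisphosphoglycerate, had 20.5 and 19.1 FPKM in wild type, and 3.37 and 13.0 in those labelled knockout, with a log2 fold of -1.41 (SE 0.50). The glucose transporter gene Slc2a8 had 11.2 and 10.4 against 4.65 and 6.55 (log2 fold -0.85, SE 0.32). Of the erythroid markers, Hbb-b1 had 16.6 and 14.7 FPKM against 0.0277 and 13.7, Alas2 3.78 and 2.30 against 1.52 and 2.22, and Hba-a1 77.6 and 45.7 against 73.2 and 76.1. The first 2 lay lower in both libraries labelled knockout, as Bpgm did, and their part in its values was not tested.

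In the pentose phosphate list 2 of 7 lay higher in both and 2 lower, or 2 and 0 after upper-quartile scaling. Pgd, which makes NADPH in the oxidative branch, had 11.4 and 15.3 FPKM in wild type, and 25.3 and 17.9 in those labelled knockout, with a log2 fold of 0.65 (SE 0.31). Tkt, the transketolase, had 106 and 104 against 96.0 and 85.3. Among HIF-1 partners and hypoxia targets 2 of 18 lay higher and 0 lower, or 3 and 0 after upper-quartile scaling. The median log2 fold of this list was 0.07, beside the -0.08 of all tested genes. Bnip3, a mitophagy receptor with 3 near-identical copies, had 17.2 and 13.7 against 4.94 and 16.2, and Mxi1, a MYC antagonist, 6.88 and 4.91 against 10.1 and 6.76. Both overlapped, each with 1 library labelled knockout apart.

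Of 10 MYC, mTOR and AMPK regulators 2 lay higher and 4 lower, or 2 and 3 after upper-quartile scaling. The AMPK subunit genes differed in sign. Prkag1, the gamma subunit, had 126 and 114 FPKM in wild type, and 44.2 and 98.2 in those labelled knockout, with a log2 fold of -0.85 (SE 0.36), and Prkaa1, a catalytic subunit, 9.52 and 11.7 against 13.6 and 15.5 (log2 fold 0.43, SE 0.29). Glutamine and aspartate entry genes had 1 of 8 higher and 2 lower, or 2 and 0 after upper-quartile scaling. Slc1a5, the glutamine carrier ASCT2, had 129 and 121 against 59.6 and 126, with the library labelled knockout replicate 1 alone apart, and Glud1, the glutamate dehydrogenase that feeds the cycle, had 65.0 and 60.5 against 53.8 and 44.9.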

How the data were processed

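RNA was measured in 4 libraries of sorted hepatic CD8 T cells, 2 per group, made with a TruSeq kit that does not mark strand, per the labels' protocols. The submitters' processing notes list Bowtie 0.12.2 and the mouse build mm8 without saying what each was used for. Not given in the sources used here are the quantification tool and its annotation. The authors deposited 1 value per gene symbol and library without naming the unit, read here as FPKM from the values; 1468 of 15367 symbols were at 0 throughout. Columns summed to 334493 to 392785. Absolute depth is unknown, so no counting interval was computed; the commonest ratio of values under 2 FPKM put the depth of the library labelled knockout replicate 1 at 0.765 of replicate 2, and the wild type libraries at 0.948 and 0.964 of it.

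The values were analysed as log2(FPKM + 1) in R 4.3.3 with limma 3.58.1 and an intensity trend, two-sided, for 9805 genes with a mean of at least 1, with Benjamini-Hochberg adjustment over all of them and a threshold of 0.05. As nothing says that libraries came from separate animals, the p-values reflect the spread among these libraries alone, which may be technical. The test was tested on simulated data, drawn for each library separately with each gene's mean and fitted spread. Those data held no library that stood apart, unlike these. Copies of the coding sequences were searched with BLAST 2.17.0 among all GENCODE M21 transcripts (at least 300 aligned bases), and figures drawn with matplotlib 3.10.9. Members, lists and tests were chosen with earlier results of these data known. Values are given in full for up to 3 members of each step with the smallest p, for isozymes, and for 2 genes of each further list. Alternatives were pseudocounts of 0.1 and 5, no filter or a mean of 5 or more, upper-quartile and quantile scaling, no trend, a replicate block and leaving out each library.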

Additional observations from a re-analysis of the deposited data

How the results depend on the processing

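The count of 0 tested members past the threshold held under every alternative run, and the lowest adjusted p of a member was 0.116, without the library labelled knockout replicate 2. Over all genes limma called 0, with 470 at an unadjusted p under 0.05, and 0 to 1 with 1 library left out (Atp5k without wild type replicate 2, H2-Q6 without the library labelled knockout replicate 2). Members higher in both libraries labelled knockout numbered 5, 9 after upper-quartile scaling, 9 after quantile normalization and 6 to 12 with 1 library left out; members lower numbered 9, and 11 to 19 with 1 library left out, where fewer samples make a clear gap easier. The median log2 fold of the members was -0.03, against 0.065 and 0.067 under these 2 scalings and -0.13 to 0.049 with 1 library left out.

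The replicate block changed no call, left the median at -0.03 and called 0 genes; same-numbered libraries deviated together with a correlation of 0.068 over all tested genes, and the labels do not say that numbers pair samples.

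Some log2 folds changed sign, among them that of Gapdh, the highest of the set at 0.48, and those of Hk2, Cs and Dlat. Upper-quartile scaling gave 0.011 for Slc2a1, 0.028 for Aldoa, 0.055 for Pkm, 0.086 for Ldha, 0.060 for Dlst and 0.071 for Mdh1; quantile normalization gave 0.086 for Pkm, 0.092 for Ldha, 0.054 for Dlst and 0.075 for Mdh1. With 1 library left out the range was -0.0046 to 0.16 for Hk1, -0.91 to 0.071 for Hk2, -0.034 to 0.11 for Gpi1, -0.14 to 0.16 for Pfkl, -0.15 to 0.0085 for Aldoa, -0.096 to 1.05 for Gapdh, -0.037 to 0.13 for Pgam1, -0.14 to 0.043 for Pkm, -0.13 to 0.098 for Ldha, -0.39 to 0.44 for Ldhb, -0.031 to 0.24 for Slc16a3, -0.088 to 0.14 for Pdha1, -0.60 to 0.18 for Dlat, -0.50 to 0.063 for Cs, -0.011 to 0.36 for Idh3b, -0.063 to 0.25 for Ogdh, -0.38 to 0.30 for Dlst and -0.14 to 0.077 for Mdh1. The cause of these changes was not tested. With 2 libraries per group and a median standard error of 0.26 among the members, differences under 2-fold were mostly not detectable. Larger differences could also miss the adjusted threshold. Among the further pathway genes, Bpgm had a log2 fold of -1.41 and a limma adjusted p of 0.866.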

Other observations

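Txnip, whose protein restrains glucose uptake and whose RNA is known to follow glucose-derived sugar phosphates, had levels of 290 and 260 FPKM in the wild type libraries against 595 and 243 FPKM in those labelled knockout. Myc, a driver of T cell growth, had 176 and 228 FPKM against 179 and 196 FPKM. Taldo1, the transaldolase of the pentose phosphate pathway, had 308 and 342 against 298 and 307 and was the highest gene of that list, and Sdhd, the membrane anchor subunit of succinate dehydrogenase, had 252 and 224 against 139 and 246. None of the 4 passed limma's test over all genes, and they were chosen after their values were seen.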
